A study of Mus musculus with 11 samples.

Results

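Tubulins and the enzymes that modify them were read across 2 experiments on the mitral valve of the mouse, whose leaflets close the inlet of the left ventricle. The members were 46 genes: every gene whose symbol begins with Tuba, Tubb, Tubg, Tubd, Tube, Tubgcp, Ttll or Agbl followed by a number, plus Hdac6, Atat1, Vash1 and Vash2. They comprise 7 alpha-tubulins, 8 beta-tubulins, 2 gamma-tubulins, 2 delta- and epsilon-tubulins, 5 gamma-tubulin complex proteins, 13 genes of the Ttll family, 5 Agbl carboxypeptidases, 2 genes of tubulin acetylation and 2 vasohibins. All 46 were listed in both tables, among 24062 genes for Ift88 and 26667 for Dzip1, and 1 pseudogene name was dropped by the rule. The Ift88 experiment held 3 knockout libraries (NfatC1Cre(+), Ift88f/f) and 2 wild-type libraries (NfatC1Cre(+); Ift88+/+), so every mouse of this experiment carried the Cre. That Cre is driven by Nfatc1, a gene of the endocardial and valve endothelial lineage, so other cells of the leaflet need not have lost Ift88. The Dzip1 experiment compared 3 heterozygotes with the S14R allele (S14R/+) with 3 libraries from +/+ mice, so every mouse kept at least 1 unaltered copy of Dzip1. Ift88 encodes a protein of the intraflagellar transport that builds cilia, and Dzip1 a protein of the ciliary base. Age and sex are not given in the labels.

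Microtubules are polymers of alpha- and beta-tubulin dimers, and gamma-tubulin complexes seed them. Cells carry several alpha- and beta-tubulin genes whose products differ mainly in their acidic tails, which lie on the outside of the microtubule. Enzymes mark the polymer: Atat1 acetylates lysine 40 of alpha-tubulin and Hdac6 removes the acetyl group, vasohibins cut off the last tyrosine, Ttll enzymes add glutamates or glycines to the tails, and Agbl carboxypeptidases remove glutamates. The axoneme of a cilium is among the most heavily marked microtubules of a cell. In the heart valve, primary cilia are found on cells of the developing leaflet.

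The ends of the coding sequences show what these enzymes act on, and which alpha-tubulin genes lack the usual site. The last 14 codons before the stop codon are printed for alpha-tubulins that differ in the final residue, with the last codon in capitals. They were read from GENCODE M21 transcripts (GRCm38), 5′ to 3′ on the coding strand.
Tuba1c: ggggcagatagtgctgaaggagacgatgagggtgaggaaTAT
Tuba4a: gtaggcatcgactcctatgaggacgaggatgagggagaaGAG
Tuba8: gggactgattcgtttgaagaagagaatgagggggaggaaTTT
Tuba1c ends in a tyrosine codon, and so do Tuba3a and Tuba3b. Tuba4a ends in a glutamate codon and Tuba8 in a phenylalanine codon, so neither transcript encodes the terminal tyrosine that vasohibins remove. Of the 14 codons shown, 4 code for glutamate in Tuba1c, 5 in Tuba4a and 6 in Tuba8.

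The windows around codon 40, in capitals, are shown because they hold the site of acetylation.
Tuba1a: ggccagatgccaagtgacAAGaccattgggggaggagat
Tuba4a: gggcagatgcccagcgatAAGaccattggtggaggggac
Tuba8: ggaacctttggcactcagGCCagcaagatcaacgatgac
Codon 40 codes for lysine in Tuba1a and Tuba4a, as in the other alpha-tubulin genes of the set except Tuba8, where it codes for alanine. The tails of the leading beta-tubulins and of Tubb1, the beta-tubulin of platelets, are shown in the same way because these genes carry the beta-tubulin results.
Tubb5: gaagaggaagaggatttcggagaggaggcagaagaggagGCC
Tubb4b: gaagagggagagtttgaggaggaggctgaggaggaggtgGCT
Tubb2a: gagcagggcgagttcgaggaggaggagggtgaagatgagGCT
Tubb2b: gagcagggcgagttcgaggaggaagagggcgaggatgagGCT
Tubb1: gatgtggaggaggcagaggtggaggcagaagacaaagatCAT
Tubb5, Tubb4b, Tubb2a and Tubb2b end in an alanine codon, and Tubb1 in a histidine codon.

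Some of these genes cannot be cleanly separated by short reads. Tuba1a and Tuba1b, which lie side by side on chromosome 15 with Tuba1c, differed at 23 of 1353 coding bases (98.3% identity). Tubb2a and Tubb2b, neighbours on chromosome 13, differed at 47 of 1335 (96.5% identity). Of the windows of 50 bases along its transcript, 75.5% were shared with another gene for Tuba1a, 83.1% for Tuba1b, 61% for Tuba1c, 49.6% for Tubb2a, 39.3% for Tubb2b and 55.5% for Tubb4b. Tuba4a shared 48.8% of its windows, nearly all with the overlapping gene Stk16, and Tubgcp4 47.9% with Trp53bp1. Levels of these genes are uncertain to the extent that the authors' counting split or dropped such reads, and the strand setting is not given in the sources used here.

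Total counts per library ranged from 23.4 to 53.8 M for Ift88 and from 75.1 to 93.5 M for Dzip1. The members took 0.4295% to 0.6955% of the counts of an Ift88 library and 0.242% to 0.253% of those of a Dzip1 library. Levels below are counts scaled to library size in M (CPM) after scaling by the trimmed mean of M values (TMM), and libraries are given in replicate order. Replicate numbers follow accession order only. The biological coefficient of variation, the typical spread of a gene between libraries beyond counting, was 87.7% for Ift88 and 7.85% for Dzip1. Separate animals are not stated in the labels, so a p-value covers the spread among these libraries only, which may be technical. Ift88 itself had 3.0, 3.91 and 0.409 CPM in knockout, against 7.53 and 19.8 CPM in wild type, with each knockout value below both wild-type values, and a log2 fold change of -2.48 ± 1.13 (SE; edgeR adjusted p = 0.801). Dzip1 had 29.5, 28.1 and 28.4 CPM in S14R/+, against 30.2, 27.8 and 31.7 CPM in wild type, and since S14R is a single-codon change, its level does not check the labels. Summed markers of valve interstitial cells such as Col1a1, Vcan and Postn were 11650.3, 11787 and 8063 CPM in knockout, against 2831 and 7797 CPM in wild type of Ift88. Cardiomyocyte markers such as Myh6 and Tnnt2 summed to 38706, 28692 and 37137 CPM in knockout, against 71353 and 172 CPM in wild type of that experiment. The 2 Ift88 wild-type libraries therefore lay on either side of the 3 knockout libraries in cardiomyocyte content. In the Dzip1 experiment the cardiomyocyte sums were 45561, 45419 and 45927 CPM in S14R/+, against 43297, 44222 and 38614 CPM in wild type. These sums did not overlap, and 12 of the 13 markers were positive. The valve interstitial sums there were 7377, 7661 and 7216 CPM in S14R/+, against 7520, 8376 and 9194 CPM in wild type, with 9 of 10 markers negative. edgeR called 0 markers of either list. In both experiments a composition difference and a difference within cells cannot be told apart in bulk tissue: fewer cells of a type and less RNA per cell give the same count.

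In the Ift88 experiment no member passed the threshold. edgeR's quasi-likelihood test, with p-values adjusted over all 14244 genes tested, called 0 of the 38 members that passed its filter on low counts, where it called 0% of all genes, and the smallest adjusted p of a member was 0.801. At an unadjusted p under 0.05 edgeR listed 0 members against 6.01% of all genes. DESeq2 called 0 members against 2.33% of all genes, and listed 2 at an unadjusted p under 0.05 against 9.59%. The knockout libraries all stood over both wild-type values for 5 members (Hdac6, Ttll7, Tubb5, Tubb6 and Tubg2), 13.2% of those tested against 13.5% of all genes. They all lay below for 2 members (Agbl5 and Ttll1), 5.26% against 11.1% of all genes. The median log2 fold change was 0.17 over the members and -0.013 over all genes tested, with 21 members positive and 17 negative. Leaving out single libraries gave member medians from 0.067, without knockout replicate 1, to 0.74, without wild-type replicate 1, where the medians over all genes were -0.051 and 0.15. Of the 8 members that were not tested, Tuba3a, Ttll2, Ttll6, Ttll8, Ttll9 and Ttll10 had no count in any library, and Ttll3 and Agbl1 had few.

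Alpha-tubulin RNA in the Ift88 experiment came mainly from Tuba1a. Tuba1a had 1693, 2107 and 3380.5 CPM in knockout, against 1491 and 1980.0 CPM in wild type. Knockout replicate 3 was the highest library and wild-type replicate 1 the lowest, the groups overlapped, and the log2 fold change was 0.46 ± 0.48 (SE; edgeR adjusted p = 0.919). Tuba1b had 913, 844 and 865 CPM in knockout, against 1203 and 446 CPM in wild type. Its 3 knockout values lay close together between the wild-type values, and the log2 fold change was 0.083 ± 0.50 (SE; edgeR adjusted p = 0.990). Tuba1c, the third gene of the chromosome 15 group, had 133, 74.5 and 42.9 CPM in knockout, against 120.3 and 80.2 CPM in wild type. The groups overlapped, with a log2 fold change of -0.26 ± 0.54 (SE; edgeR adjusted p = 0.972). Tuba4a, whose transcript ends in the glutamate codon shown above, had 55.3, 25.6 and 48.9 CPM in knockout, against 114 and 15.4 CPM in wild type. Both extremes were wild-type libraries, the one with the most cardiomyocyte marker RNA being the highest and the one with the least the lowest, and the log2 fold change was -0.58 ± 0.82 (SE; edgeR adjusted p = 0.948). With the cardiomyocyte list as a covariate the log2 fold change of Tuba4a was -1.09. That covariate leans on wild-type replicate 2, whose marker sum of 172 CPM lay far below those of the other libraries. Without that library the log2 fold change of Tuba4a was -1.40.

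Tuba8, the alpha-tubulin without lysine 40, was counted only in knockout libraries. It had 3.0, 0 and 2.05 CPM in knockout, against 0 and 0 CPM in wild type. Knockout replicates 1 and 3 held all 145 of its counts and replicate 2 had none, so the groups overlapped at 0. Against a floor of 3 counts over the wild-type group its pooled counts were at least 41.2-fold higher, a bound that leaves out the spread between libraries. edgeR did not call Tuba8 (edgeR adjusted p = 0.801), and its 95% interval of -0.91 to 18.8 on the log2 scale included 0. Tuba3b, a gene known from testis, ranged from 0 to 2.0 CPM over the 5 libraries. The summed alpha-tubulin level was 2799, 3053 and 4340.3 CPM in knockout, against 2931 and 2522 CPM in wild type, a log2 ratio of the means of 0.32 with overlapping groups. In the 2 knockout libraries and the 1 wild-type library whose titles share the prefix IR28N the log2 ratio was -0.0026, and leaving out knockout replicate 3 gave 0.10.

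Beta-tubulin RNA was spread over more genes. Tubb5, a broadly expressed beta-tubulin, had 763, 813 and 829 CPM in knockout, against 618 and 465 CPM in wild type. All 3 knockout values stood over both wild-type values, with a log2 fold change of 0.57 ± 0.36 (SE; edgeR adjusted p = 0.861). Tubb4b, a beta-tubulin also found in axonemes, had 607, 529.5 and 437 CPM in knockout, against 526 and 451 CPM in wild type. The groups overlapped, with a log2 fold change of 0.10 ± 0.35 (SE; edgeR adjusted p = 0.983). Tubb6 had 310.4, 268 and 259 CPM in knockout, against 258 and 159.6 CPM in wild type. The knockout libraries again stood over both wild-type values, by less than 1 CPM at the closest pair, and the log2 fold change was 0.42 ± 0.36 (SE; edgeR adjusted p = 0.904). Tubb2a had 165, 202 and 168 CPM in knockout, against 114 and 243 CPM in wild type. Here the wild-type libraries were the extremes on both sides, and the log2 fold change was -0.0017 ± 0.42 (SE; edgeR adjusted p = 1.000). Tubb2b had 31.1, 32.9 and 21.4 CPM in knockout, against 33.9 and 8.77 CPM in wild type, with overlapping groups and a log2 fold change of 0.42 ± 0.66 (SE; edgeR adjusted p = 0.956). The summed beta-tubulin level was 1897, 1882 and 1759 CPM in knockout, against 1556 and 1405 CPM in wild type. Every knockout value stood over both wild-type values in this sum, and the log2 ratio of the means was 0.32; it was 0.44 without a scaling factor.

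Beta-tubulins of restricted tissues were read at low levels. Tubb3, the class III beta-tubulin of neurons, had 6.63, 16.1 and 14.04 CPM in knockout, against 0 and 15.3 CPM in wild type. One wild-type library had no count and the other lay within the knockout range, with a log2 fold change of 0.68 ± 1.89 (SE; edgeR adjusted p = 0.981). Tubb4a, best known from brain, had 4.48, 18.2 and 20.1 CPM in knockout, against 5.48 and 3.10 CPM in wild type. Knockout replicate 1 lay between the wild-type libraries and the other 2 knockout libraries above them, with a log2 fold change of 1.74 ± 0.92 (SE; edgeR adjusted p = 0.818). Summed neuronal markers such as Uchl1 and Stmn2 were 54.3, 107 and 41.9 CPM in knockout, against 45.6 and 62.3 CPM in wild type, and Elavl3 and Rbfox3 of that list were at 0 in every library. The part of nerve RNA in these values was not tested.

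**Figure D1:**
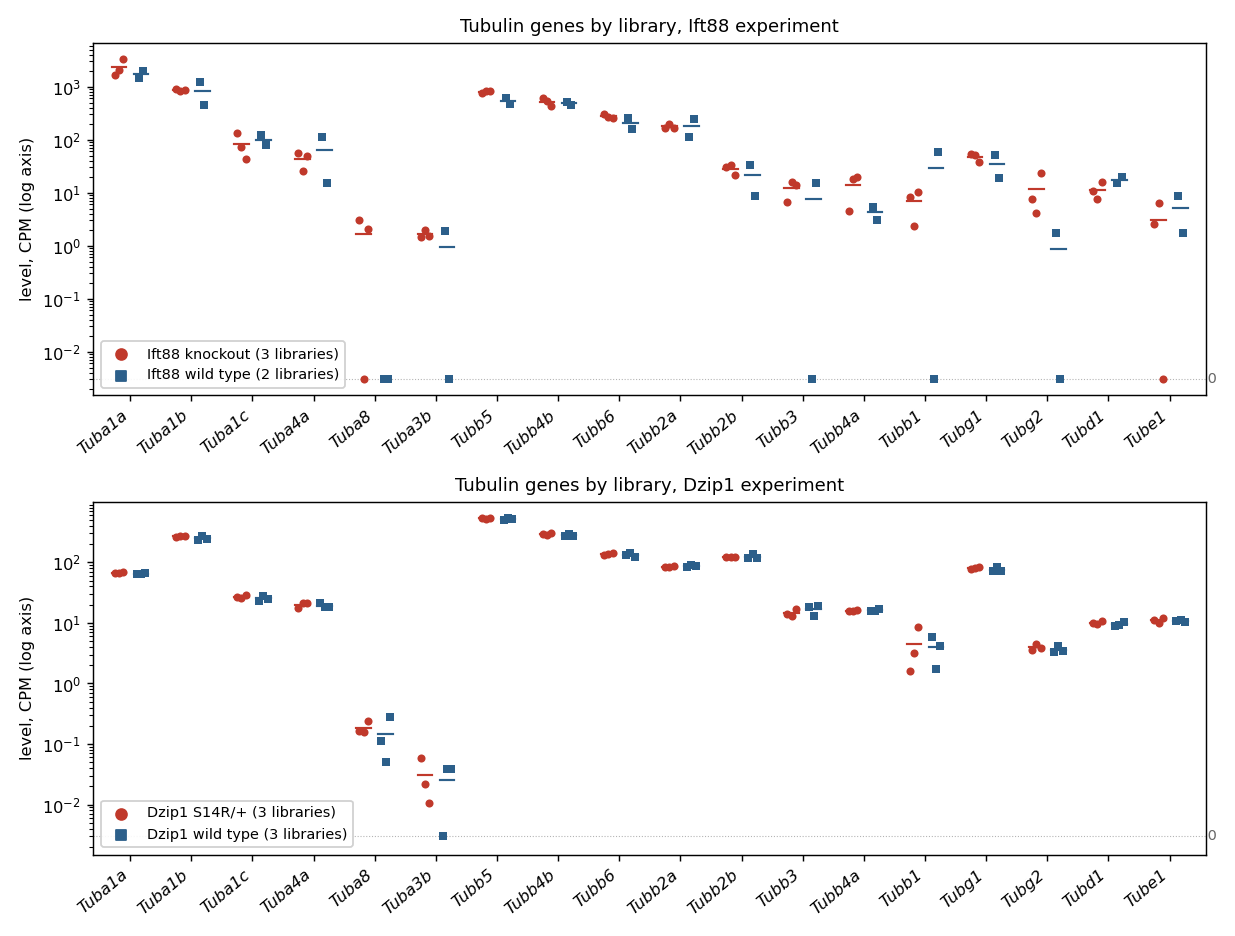
Level of each tubulin gene in every library (CPM after scaling, log axis; zeros on the dotted line), with knockout or S14R/+ libraries as red circles left of the blue squares for wild type and bars at group means. In the Ift88 experiment (top) libraries of 1 genotype can lie far apart, as for Tuba4a at 114 and 15.4 CPM in the wild type, while in the Dzip1 experiment (bottom) the points of most genes nearly coincide.

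Tubb1 levels ran in the order of platelet markers in the Dzip1 libraries, and only in part in the Ift88 libraries. This gene encodes the beta-tubulin that forms the marginal band of platelets, and its RNA comes from megakaryocytes and platelets. It had 8.43, 2.33 and 10.1 CPM in knockout, against 0 and 59.5 CPM in wild type. The 2 wild-type libraries held the lowest and the highest value, and the log2 fold change was -2.10 ± 2.00 (SE; edgeR adjusted p = 0.915). Without wild-type replicate 2 its direction turned, to 10.77, but the wild-type library left had no count, so that size is not a measured fold. With the cardiomyocyte covariate the log2 fold change was 8.53, and wild-type replicate 2 was also the library with the lowest cardiomyocyte sum, 172 CPM. The covariate leans on that library, and the other wild-type library had no Tubb1 count, so 8.53 is not a measured fold either. The 8 markers of megakaryocytes and platelets, such as Pf4 and Itga2b, summed to 76.7, 24.1 and 48.5 CPM in knockout, against 27.2 and 269.8 CPM in wild type. The library with the highest sum had the highest Tubb1 level, while the library without a Tubb1 count had the second-lowest sum. Knockout replicate 3 had more Tubb1 than knockout replicate 1, 10.1 against 8.43 CPM, with a lower marker sum, 48.5 against 76.7 CPM. Among the Dzip1 libraries Tubb1 had 1.62, 3.23 and 8.60 CPM in S14R/+, against 5.95, 1.75 and 4.17 CPM in wild type, beside marker sums of 18.6, 30.7 and 61.6 CPM in S14R/+, against 53.3, 23.4 and 38.4 CPM in wild type. Tubb1 and the marker sum put those 6 libraries in the same order. The fold change of Tubb1 there was 0.18 ± 0.54 (SE; edgeR adjusted p = 0.965) on the log2 scale, with a 95% interval of -1.03 to 1.40.

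**Figure D2:**
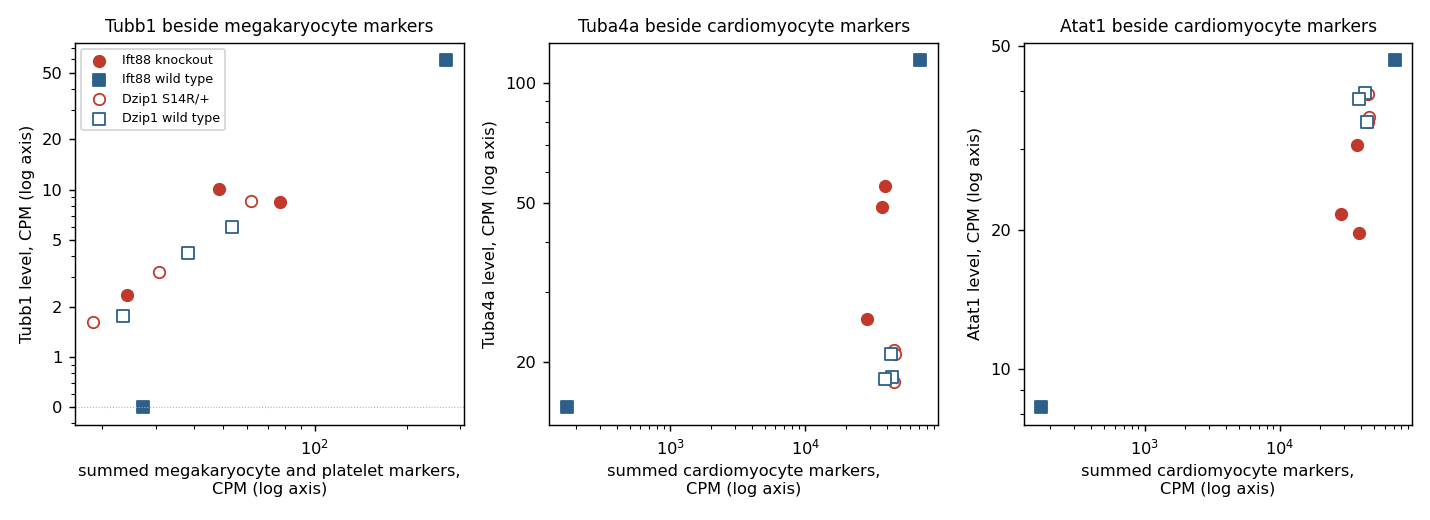
Level of Tubb1 against the summed megakaryocyte and platelet markers (left), and of Tuba4a (middle) and Atat1 (right) against the summed cardiomyocyte markers, in CPM on log axes, with 1 point per library (red circles knockout or S14R/+, blue squares wild type; filled Ift88, open Dzip1; the dotted line marks 0). Ift88 wild-type replicate 2 stands apart in all 3 panels, at 59.5 CPM of Tubb1 and at 172 CPM of cardiomyocyte markers.

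Gamma-tubulin, which caps and seeds microtubules, is encoded by Tubg1 and Tubg2, and the 2 coding sequences differed at 91 of 1353 bases (93.3% identity). Tubg1 had 54.7, 50.7 and 37.8 CPM in knockout, against 52.1 and 18.6 CPM in wild type. The groups overlapped, with a log2 fold change of 0.43 ± 0.53 (SE; edgeR adjusted p = 0.933). Tubg2, known from brain, had 7.77, 4.06 and 23.2 CPM in knockout, against 1.71 and 0 CPM in wild type. All 3 knockout values stood over both wild-type values, 1 of which had no count, and the log2 fold change was 3.78 ± 2.15 (SE; edgeR adjusted p = 0.844). Delta-tubulin (Tubd1) and epsilon-tubulin (Tube1), which serve the triplet microtubules of centrioles, had log2 fold changes of -0.62 ± 0.59 (SE; edgeR adjusted p = 0.914) and -0.77 ± 2.01 (SE; edgeR adjusted p = 0.980).

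The gamma-tubulin complex proteins hold gamma-tubulin in the seeding ring. Tubgcp2 and Tubgcp3 form its small unit with gamma-tubulin. Tubgcp2 had 81.8, 68.6 and 81.1 CPM in knockout, against 58.0 and 72.9 CPM in wild type. Tubgcp3 had 45.4, 44.04 and 72.4 CPM in knockout, against 29.7 and 60.4 CPM in wild type. Both overlapped between the genotypes, with log2 fold changes of 0.24 ± 0.33 (SE; edgeR adjusted p = 0.946) and 0.26 ± 0.47 (SE; edgeR adjusted p = 0.963). Tubgcp5 had 13.96, 22.6 and 10.4 CPM in knockout, against 12.7 and 28.6 CPM in wild type. Tubgcp6 had 7.39, 27.8 and 5.61 CPM in knockout, against 28.3 and 17.03 CPM in wild type. These ring-specific members also overlapped, with log2 fold changes of -0.40 ± 0.62 (SE; edgeR adjusted p = 0.956) and -0.73 ± 0.82 (SE; edgeR adjusted p = 0.929), and Tubgcp4 had -0.097 ± 0.63 (SE; edgeR adjusted p = 0.991).

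Among the acetylation genes, Hdac6, which removes the acetyl group, had 55.3, 55.4 and 96.1 CPM in knockout, against 53.8 and 42.8 CPM in wild type. All 3 knockout values stood over both wild-type values, 2 of them by less than 2 CPM over wild-type replicate 1, and the log2 fold change was 0.51 ± 0.41 (SE; edgeR adjusted p = 0.894). Atat1, the acetyltransferase, had 19.7, 21.6 and 30.6 CPM in knockout, against 46.6 and 8.26 CPM in wild type. The 2 wild-type libraries were its highest and lowest values and ran in the order of the cardiomyocyte marker sum, but the knockout libraries did not. The knockout library with the highest marker sum, 38706 CPM, had the lowest Atat1 level of its group, 19.7 CPM. The log2 fold change was -0.19 ± 0.75 (SE; edgeR adjusted p = 0.986). With the cardiomyocyte list as a covariate, which leans on wild-type replicate 2, it was -0.66, and without that library it was -0.96. Vash1, a tyrosine carboxypeptidase, had 18.3, 5.82 and 4.42 CPM in knockout, against 1.26 and 5.01 CPM in wild type. Its groups overlapped through 1 knockout library, with a log2 fold change of 1.60 ± 1.13 (SE; edgeR adjusted p = 0.880). Vash2, the related enzyme, had 48.9, 49.4 and 49.5 CPM in knockout, against 56.9 and 23.02 CPM in wild type. The knockout values agreed within 1 CPM and lay between the wild-type values, with a log2 fold change of 0.30 ± 0.47 (SE; edgeR adjusted p = 0.956).

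The Agbl carboxypeptidases shorten glutamate tails, and Agbl5 removes the glutamate at the branch point. Agbl5 had 102, 90.2 and 12.9 CPM in knockout, against 142 and 109.8 CPM in wild type. All 3 knockout values stood under both wild-type values, with knockout replicate 3 far below the other 2, and the log2 fold change was -0.88 ± 0.80 (SE; edgeR adjusted p = 0.908). Agbl3 had 4.93, 9.31 and 7.77 CPM in knockout, against 18.8 and 7.22 CPM in wild type. Agbl2 had 4.07, 1.56 and 0 CPM in knockout, against 6.05 and 0 CPM in wild type. Both overlapped, with log2 fold changes of -0.83 ± 0.75 (SE; edgeR adjusted p = 0.908) and -0.68 ± 2.73 (SE; edgeR adjusted p = 0.987). Agbl4 reached at most 1.37 CPM in any library. Agbl1 had 24 counts, all in wild-type replicate 2, so its groups overlapped at 0. Its pooled counts were at least 9.38-fold lower in the knockout against a floor of 3 counts over that group, which leaves out the spread between libraries.

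In the Ttll family, Ttll1 is the catalytic part of a complex that glutamylates tubulin. It had 30.8, 27.3 and 11.2 CPM in knockout, against 35.2 and 43.4 CPM in wild type. All 3 knockout values stood under both wild-type values, with a log2 fold change of -0.77 ± 0.54 (SE; edgeR adjusted p = 0.879). Ttll7, a glutamylase that prefers beta-tubulin, had 7.61, 9.78 and 13.1 CPM in knockout, against 1.83 and 5.23 CPM in wild type. Here all 3 knockout values stood over both wild-type values, with a log2 fold change of 1.52 ± 0.88 (SE; edgeR adjusted p = 0.844). The glutamylase Ttll4 had 3.69, 5.61 and 10.4 CPM in knockout, against 3.31 and 3.88 CPM in wild type. Ttll5 had 21.1, 7.57 and 9.21 CPM in knockout, against 18.3 and 2.17 CPM in wild type. Their groups overlapped, with log2 fold changes of 0.86 ± 0.95 (SE; edgeR adjusted p = 0.927) and 0.30 ± 1.03 (SE; edgeR adjusted p = 0.984). Ttll12, Ttll11 and Ttll13 had log2 fold changes of -0.077, -0.19 and -0.24. Ttll3, a glycylase, had 87 counts over the knockout libraries, nearly all of them in replicate 2, and none in the wild type. Its pooled counts were at least 24.7-fold higher against a floor of 3 counts, which leaves out the spread between libraries.

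**Figure D3:**
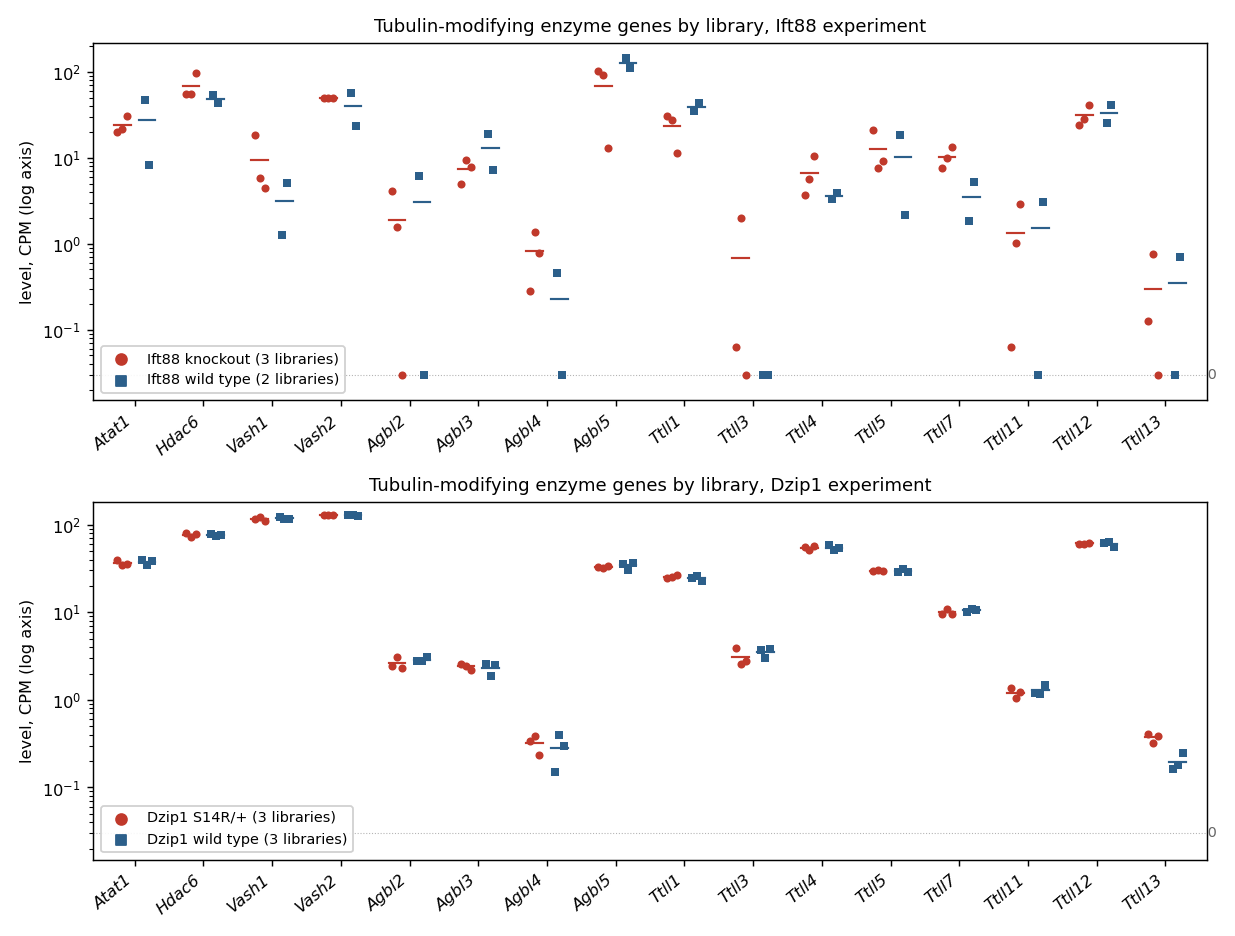
Level of the tubulin-modifying enzymes in every library (CPM after scaling, log axis; zeros on the dotted line), with knockout or S14R/+ libraries as red circles left of the blue squares for wild type and bars at group means. In the Ift88 experiment (top) Agbl5 and Ttll1 lie lower and Hdac6 and Ttll7 higher in every knockout library than in both wild-type values; none of these passed the test.

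Fold changes of the Ift88 experiment moved with gene length over all genes, taken as the union of annotated exons. The median log2 fold change was -0.43 in the shortest of 5 length classes and 0.59 in the longest. Correcting each library for this trend left the members' median at 0.18 and made no call. Of the members whose groups did not overlap, the corrected log2 fold changes were 0.28 for Hdac6, 1.07 for Ttll7, 0.64 for Tubb5, 0.62 for Tubb6, 4.17 for Tubg2, -1.28 for Agbl5 and -0.63 for Ttll1, each in the direction of the uncorrected value. With 1 library left out, the uncorrected log2 fold changes of these members kept their direction but varied in size, from 0.20 to 0.66 for Hdac6, 0.93 to 2.48 for Ttll7, 0.38 to 0.75 for Tubb5, 0.11 to 0.78 for Tubb6, 2.76 to 11.82 for Tubg2, -1.33 to -0.39 for Agbl5 and -1.07 to -0.44 for Ttll1. The value nearest 0 came without wild-type replicate 2 for Tubb5, Tubb6 and Tubg2 and without wild-type replicate 1 for Ttll7. For Hdac6, Agbl5 and Ttll1 it came without knockout replicate 3. The 11.82 for Tubg2 came without wild-type replicate 1, where the wild-type library left had no count, so that size is not a measured fold.

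In the Dzip1 experiment the members were measured with a far smaller spread, and again none passed the threshold. edgeR called 0 of the 39 members tested and 0% of the 16160 genes tested, and the smallest adjusted p of a member was 0.822. At an unadjusted p under 0.05 it listed 1 member, Ttll13, against 5.93% of all genes, while DESeq2 listed 0 members against 4.70% and called 0% of all genes. The S14R/+ libraries all lay above the wild-type libraries for 2 members (Tuba1a and Ttll13), 5.13% of those tested against 5.27% of all genes. They all lay below for 0 members, against 5.01% of all genes. The log2 fold change was within 0.1 of 0 for 29 of the 39 members, the median over the members was 0.024, and the median over all genes was -0.00033. The median standard error of a member was 0.057. Not tested were Ttll2, with no count in any library, and Agbl1, Ttll6, Ttll8, Ttll9, Tuba3a and Tuba3b.

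Of the alpha-tubulins, Tuba1b had 261, 268 and 273 CPM in S14R/+, against 237, 276 and 242 CPM in wild type. The groups overlapped, with a log2 fold change of 0.090 ± 0.055 (SE; edgeR adjusted p = 0.848) and a 95% interval of -0.032 to 0.21. Tuba1a had 65.99, 65.5 and 70.1 CPM in S14R/+, against 63.03, 64.9 and 65.5 CPM in wild type. Every S14R/+ library lay above every wild-type library, but the closest pair was nearly equal, at 65.52 CPM in S14R/+ and 65.50 CPM in wild type. The log2 fold change was 0.060 ± 0.039 (SE; edgeR adjusted p = 0.862) with an interval of -0.028 to 0.15. Tuba1c had 26.8, 25.6 and 28.5 CPM in S14R/+, against 23.3, 27.9 and 25.2 CPM in wild type, with a log2 fold change of 0.084 ± 0.073 (SE; edgeR adjusted p = 0.880). Tuba4a had 17.8, 21.4 and 20.9 CPM in S14R/+, against 20.9, 18.4 and 18.1 CPM in wild type. Its groups overlapped as well, with a log2 fold change of 0.066 ± 0.083 (SE; edgeR adjusted p = 0.909). All 5 alpha-tubulins tested had a positive fold change, and the summed alpha-tubulin level was 372, 381 and 393 CPM in S14R/+, against 345, 387 and 351 CPM in wild type. The sums overlapped, with a log2 ratio of the means of 0.083. With the cardiomyocyte list as a covariate the log2 fold changes were 0.0081 for Tuba1b, 0.075 for Tuba1a, 0.032 for Tuba1c and 0.011 for Tuba4a.

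Of the beta-tubulins, Tubb5 had 529.8, 521 and 542 CPM in S14R/+, against 498, 534 and 515 CPM in wild type. Its groups overlapped, and the log2 fold change was 0.043 ± 0.041 (SE; edgeR adjusted p = 0.891) with an interval of -0.050 to 0.14. Tubb4b had 289, 279 and 305 CPM in S14R/+, against 273, 291 and 269.9 CPM in wild type. The log2 fold change was 0.064 ± 0.045 (SE; edgeR adjusted p = 0.863), with overlapping groups. Tubb6 had 134, 135 and 142 CPM in S14R/+, against 131, 143 and 122 CPM in wild type, with overlap and a log2 fold change of 0.056 ± 0.054 (SE; edgeR adjusted p = 0.891). Tubb2a had 84.8, 84.2 and 85.6 CPM in S14R/+, against 82.2, 90.99 and 85.9 CPM in wild type. Tubb2b, its near copy, had 120.2, 125 and 124 CPM in S14R/+, against 117, 137 and 118 CPM in wild type. Both overlapped, with log2 fold changes of -0.025 ± 0.040 (SE; edgeR adjusted p = 0.930) and -0.014 ± 0.056 (SE; edgeR adjusted p = 0.976). Tubb3 had 14.2, 12.96 and 16.7 CPM in S14R/+, against 18.03, 13.02 and 18.95 CPM in wild type. Tubb4a had 15.6, 15.6 and 16.2 CPM in S14R/+, against 15.8, 15.7 and 17.04 CPM in wild type. Both genes of the nervous system overlapped between the genotypes, with log2 fold changes of -0.19 ± 0.14 (SE; edgeR adjusted p = 0.866) and -0.033 ± 0.057 (SE; edgeR adjusted p = 0.932). Of the 8 beta-tubulins 4 were positive and 4 negative. The summed beta-tubulin level was 1188, 1177 and 1239.8 CPM in S14R/+, against 1142, 1226 and 1150.4 CPM in wild type, with overlapping groups and a log2 ratio of 0.035.

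Tubg1 had 78.7, 81.4 and 83.3 CPM in S14R/+, against 72.5, 82.96 and 71.3 CPM in wild type. The groups overlapped, with a log2 fold change of 0.10 ± 0.055 (SE; edgeR adjusted p = 0.832) and an interval of -0.022 to 0.23. Among the ring proteins, Tubgcp6 had 49.5, 49.03 and 50.4 CPM in S14R/+, against 54.5, 48.7 and 51.4 CPM in wild type. Tubgcp3 had 53.4, 50.2 and 53.7 CPM in S14R/+, against 55.2, 51.7 and 53.8 CPM in wild type. Neither separated the genotypes, with log2 fold changes of -0.054 ± 0.047 (SE; edgeR adjusted p = 0.880) and -0.031 ± 0.044 (SE; edgeR adjusted p = 0.918). Tubgcp4 had 31.3, 30.3 and 32.1 CPM in S14R/+, against 31.1, 28.8 and 31.5 CPM in wild type. Tubgcp2 had 60.9, 63.4 and 61.5 CPM in S14R/+, against 61.7, 63.7 and 57.5 CPM in wild type. Their groups overlapped too, with log2 fold changes of 0.036 ± 0.054 (SE; edgeR adjusted p = 0.920) and 0.022 ± 0.044 (SE; edgeR adjusted p = 0.944).

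Both acetylation genes overlapped between the genotypes. Atat1 had 39.3, 34.3 and 35.2 CPM in S14R/+, against 39.6, 34.2 and 38.5 CPM in wild type. Hdac6 had 80.2, 71.5 and 77.4 CPM in S14R/+, against 79.3, 73.5 and 76.3 CPM in wild type. The log2 fold changes were -0.047 ± 0.070 (SE; edgeR adjusted p = 0.925) and -0.00048 ± 0.048 (SE; edgeR adjusted p = 0.999), with intervals of -0.20 to 0.11 and -0.11 to 0.11. Vash1 had 117, 121 and 112 CPM in S14R/+, against 123, 117 and 116 CPM in wild type. Vash2 had 129, 129 and 129 CPM in S14R/+, against 129.9, 129 and 126 CPM in wild type. The vasohibins were among the most even members, with log2 fold changes of -0.027 ± 0.041 (SE; edgeR adjusted p = 0.923) and 0.0073 ± 0.030 (SE; edgeR adjusted p = 0.980). Agbl5 had 32.7, 31.9 and 33.5 CPM in S14R/+, against 35.9, 30.8 and 36.8 CPM in wild type. Agbl2 had 2.45, 3.10 and 2.28 CPM in S14R/+, against 2.77, 2.76 and 3.11 CPM in wild type. Agbl3 had 2.56, 2.45 and 2.21 CPM in S14R/+, against 2.59, 1.85 and 2.51 CPM in wild type. All 3 overlapped, with log2 fold changes of -0.077 ± 0.068 (SE; edgeR adjusted p = 0.880), -0.14 ± 0.15 (SE; edgeR adjusted p = 0.898) and 0.054 ± 0.17 (SE; edgeR adjusted p = 0.968).

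In the Ttll family, Ttll7 had 9.61, 10.8 and 9.45 CPM in S14R/+, against 10.2, 10.9 and 10.6 CPM in wild type. The glycylase Ttll3 had 3.95, 2.57 and 2.75 CPM in S14R/+, against 3.75, 3.0 and 3.81 CPM in wild type. Both overlapped, with log2 fold changes of -0.085 ± 0.074 (SE; edgeR adjusted p = 0.880) and -0.19 ± 0.18 (SE; edgeR adjusted p = 0.890). Ttll1 had 24.7, 25.1 and 26.7 CPM in S14R/+, against 24.5, 25.9 and 22.9 CPM in wild type. Ttll12 had 60.9, 60.8 and 62.3 CPM in S14R/+, against 61.5, 63.3 and 55.6 CPM in wild type. Their groups overlapped as well, with log2 fold changes of 0.061 ± 0.061 (SE; edgeR adjusted p = 0.895) and 0.029 ± 0.049 (SE; edgeR adjusted p = 0.932). The glutamylase Ttll13, named here after its values were seen, had 0.408, 0.322 and 0.388 CPM in S14R/+, against 0.165, 0.179 and 0.249 CPM in wild type. Every S14R/+ library lay above every wild-type library at these low levels, with a log2 fold change of 0.91 ± 0.33 (SE; edgeR adjusted p = 0.822) and an interval of 0.17 to 1.66 that does not allow for the number of genes tested.

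**Figure D4:**
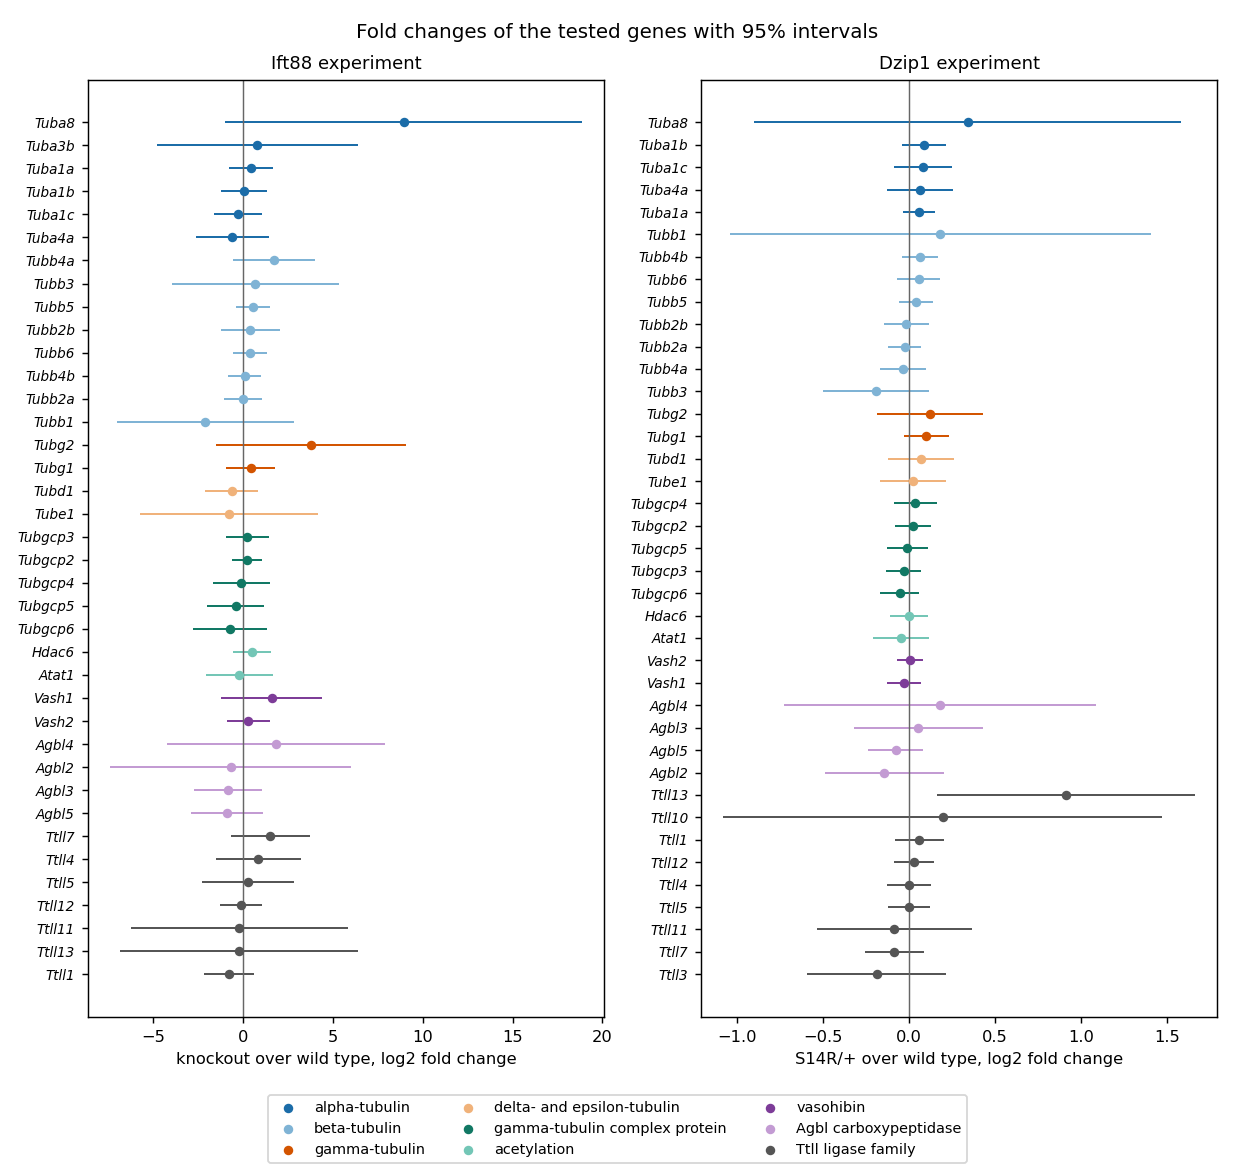
Log2 fold change of each tested member (points) with its 95% interval (lines), knockout over wild type on the left and S14R/+ over wild type on the right, coloured by role; the axes differ in range. In the Ift88 experiment every interval includes 0 and the widest reach from -7.32 and to 18.8, while in the Dzip1 experiment most points lie within 0.1 of 0 and Ttll13 alone has an interval that leaves out 0.

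The make-up of the tubulin pool was compared within each library, as shares of the level per kilobase of exon sequence. Of the alpha-tubulin level, Tuba1a supplied 62.5, 70.4 and 79.1% in knockout, against 53.2 and 79.8% in wild type of the Ift88 experiment. Tuba1b supplied 32.4, 27.1 and 19.5% in knockout, against 41.3 and 17.3% in wild type of that experiment. Tuba1a led in all 5 of these libraries, and its share was lowest in wild-type replicate 1 and highest in wild-type replicate 2, so the wild-type libraries enclosed the knockout libraries. Among the Dzip1 libraries the order was the other way round. Of the alpha-tubulin level there, Tuba1b supplied 72.3, 72.8 and 71.9% in S14R/+, against 71.3, 73.4 and 71.1% in wild type. Tuba1a supplied 19.0, 18.5 and 19.2% in S14R/+, against 19.7, 17.98 and 20.03% in wild type. Tuba1b led in all 6 of those libraries, and the genotypes overlapped in both shares. The experiments are separate tables from separate mice with no genotype in common, and the Tuba1a and Tuba1b transcripts share most of their windows with other genes, so the contrast between experiments was not tested.

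Tubb4b and Tubb5 held the largest beta-tubulin shares in each library except Ift88 wild-type replicate 2, where Tubb2a came before Tubb5. Tubb4b supplied 29.8% to 39.8% of the beta-tubulin level per kilobase in the Ift88 libraries and 28.1% to 29.4% in the Dzip1 libraries. Tubb5 supplied 22.2% to 35.5% in the Ift88 libraries and 32.7% to 33.7% in the Dzip1 libraries. In the Ift88 libraries Tubb2a supplied 11.2% to 24.1% and Tubb6 10.4% to 16.8%, and in the Dzip1 libraries Tubb6, Tubb2b and Tubb2a followed at nearly equal shares. Tubb2b supplied 0.609% to 2.34% in the Ift88 libraries and 10.9% to 12.2% in the Dzip1 libraries. Within each experiment the genotypes overlapped in the shares of Tubb4b, Tubb2b and Tubb6. They did not overlap for Tubb5 in the Ift88 experiment, at 29.6, 31.9 and 35.5% in knockout, against 29.4 and 22.2% in wild type. The closest pair was 29.58% in knockout and 29.41% in wild type. Nor did the genotypes overlap for Tubb2a in the Dzip1 experiment, at 11.1, 11.2 and 10.7% in S14R/+, against 11.2, 11.5 and 11.6% in wild type. The difference was smaller than 1 percentage point, with a closest pair of 11.161% in S14R/+ and 11.165% in wild type. How often such shares separate over all genes was not computed, and neither share was tested.

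**Figure D5:**
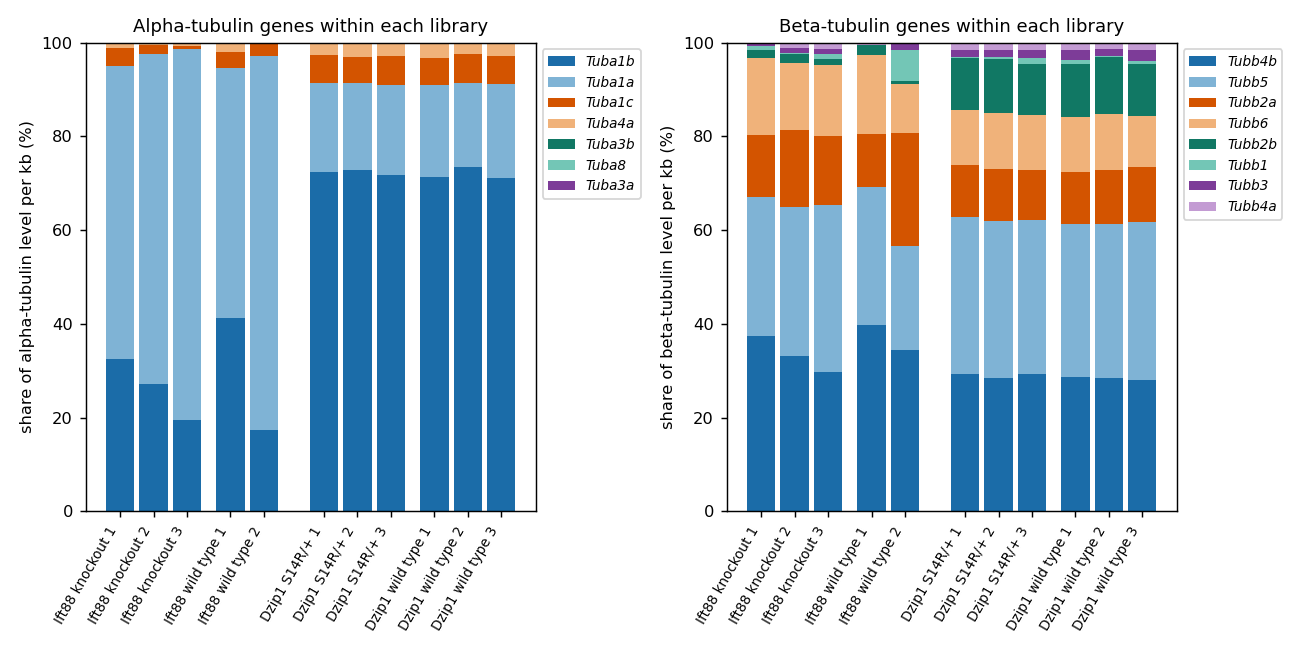
Share of each gene in the alpha-tubulin (left) and beta-tubulin (right) level per kilobase of exon sequence, with 1 stacked bar per library that adds up to 100%. Tuba1a is the largest alpha-tubulin share in the 5 Ift88 libraries and Tuba1b in the 6 Dzip1 libraries, while Tubb4b and Tubb5 hold the largest beta-tubulin shares in each library except Ift88 wild-type replicate 2, where Tubb2a (24.1%) exceeds Tubb5 (22.2%).

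Per kilobase, the enzymes stood well below Tubb4b, Tubb5 and the largest alpha-tubulin of each experiment, but not below every tubulin named above. In the Dzip1 experiment Tuba1a averaged 36.5 CPM per kilobase, less than Vash1. In the Ift88 experiment Tubb2b averaged 11.2 CPM per kilobase, less than Agbl5. For Dzip1 the mean level over all libraries was 45.3 CPM per kilobase for Vash1, 29.8 for Vash2, 15.04 for Ttll12, 13.1 for Hdac6, 8.58 for Ttll1 and 8.03 for Atat1. For Ift88 it was 12.97 CPM per kilobase for Agbl5, 10.6 for Vash2, 10.4 for Hdac6, 10.2 for Ttll1, 7.92 for Ttll12, 5.53 for Atat1 and 2.68 for Vash1. The order there differed between the genotypes: Agbl5 averaged 9.70 CPM per kilobase in knockout and 17.9 in wild type, Hdac6 11.9 in knockout and 8.31 in wild type, and Vash2 11.4 in knockout and 9.26 in wild type. With the longest transcript as the length, the vasohibins still came first among the enzymes in the Dzip1 experiment, while the places after them changed: Atat1, for example, stood at 18.1 and 12.5 CPM per kilobase in the Dzip1 and Ift88 experiments.

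Genes that act beside the members were read from 4 lists. Tubulin is folded by the CCT chaperonin, handed over by prefoldin, and assembled into dimers by the Tbc cofactors. edgeR called 0 of the 23 genes of that list in either experiment. In the Ift88 experiment 21 of the 23 had a negative fold change, with a median of -0.41 against -0.013 over all genes, and in 13 every knockout value stood under both wild-type values, where 11.1% of all genes did. Pfdn1, a prefoldin subunit, had 95.1, 81.2 and 73.98 CPM in knockout, against 148 and 148 CPM in wild type. Tbcb had 117, 92.4 and 103 CPM in knockout, against 162 and 165 CPM in wild type. Tbca, which binds beta-tubulin, had 92.0, 80.3 and 67.8 CPM in knockout, against 134 and 117 CPM in wild type. The groups did not overlap in any of these, with log2 fold changes of -0.83 ± 0.31 (SE; edgeR adjusted p = 0.801), -0.65 ± 0.31 (SE; edgeR adjusted p = 0.801) and -0.65 ± 0.32 (SE; edgeR adjusted p = 0.807). After the length correction they were -0.36, -0.27 and -0.084, and the median of the list was -0.27 with 19 negative, against -0.093 over all genes. Without wild-type replicate 1 the list median was -0.23, against 0.15 over all genes. For Dzip1 the median was 0.021, with 14 of 23 positive. Tbcel, which destabilises tubulin, had 32.7, 33.9 and 31.9 CPM in S14R/+, against 41.2, 35.1 and 38.6 CPM in wild type, the groups did not overlap, and the log2 fold change was -0.22 ± 0.062 (SE; edgeR adjusted p = 0.822). Cct8 and Cct7, subunits of the chaperonin, had 0.065 ± 0.037 (SE; edgeR adjusted p = 0.842) and 0.083 ± 0.048 (SE; edgeR adjusted p = 0.843), with overlapping groups. Over the list 1 of 23 genes lay higher and 1 lower without overlap in the Dzip1 experiment, against 5.27% and 5.01% of all genes.

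Microtubule-associated, tip and severing proteins had a median log2 fold change of 0.19 in the Ift88 experiment, with 25 of 40 positive and 0 called by edgeR, and the median was -0.12 after the length correction, against -0.093 over all genes. It was 0.50 without wild-type replicate 2, against 0.25 over all genes. DESeq2 called 2 of the 40, Map1b and Map1a, where it called 2.33% of all genes. Map1b, which binds and stabilises microtubules, had 129, 243 and 90.2 CPM in knockout, against 23.3 and 24.1 CPM in wild type. Map1a had 5.18, 8.11 and 0.982 CPM in knockout, against 0.114 and 0.0866 CPM in wild type. All 3 knockout values stood over both wild-type values in both genes. The log2 fold changes were 2.70 ± 0.54 (SE; edgeR adjusted p = 0.801) and 5.53 ± 1.74 (SE; edgeR adjusted p = 0.801), and 1.62 and 4.65 after the length correction. Map4 had 244, 339 and 232 CPM in knockout, against 90.6 and 144 CPM in wild type, with a log2 fold change of 1.21 ± 0.40 (SE; edgeR adjusted p = 0.801) and 0.23 after the length correction. Over the list 8 of 40 genes lay higher and 1 lower in every knockout library, against 13.5% and 11.1% of all genes. In the Dzip1 experiment the median was 0.011 over 39 genes, 23 of them positive. Fign, a severing enzyme, had 19.2, 19.9 and 20.4 CPM in S14R/+, against 17.6, 17.6 and 16.8 CPM in wild type. Mtap6, the older symbol of Map6, had 6.91, 8.07 and 7.38 CPM in S14R/+, against 6.16, 6.30 and 6.20 CPM in wild type. Dcx, a protein of young neurons, had 0.745, 0.677 and 0.754 CPM in S14R/+, against 0.785, 1.16 and 2.04 CPM in wild type. In all 3 the genotypes did not overlap, with log2 fold changes of 0.19 ± 0.053 (SE; edgeR adjusted p = 0.822), 0.26 ± 0.086 (SE; edgeR adjusted p = 0.822) and -0.87 ± 0.33 (SE; edgeR adjusted p = 0.822). These were picked by smallest p. Over the list 2 of 39 genes lay higher and 2 lower without overlap, against 5.27% and 5.01% of all genes.

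Partners of the gamma-tubulin ring and augmin had a median of -0.014 in the Ift88 experiment, with 7 of 16 positive and 0 called by edgeR, while DESeq2 called 1, Pcnt, where it called 2.33% of all genes. Pcnt, the centrosomal scaffold pericentrin, had 12.8, 20.4 and 12.6 CPM in knockout, against 2.21 and 0.624 CPM in wild type. Akap9 had 30.5, 38.1 and 9.33 CPM in knockout, against 9.17 and 3.43 CPM in wild type. Cdk5rap2 had 34.95, 21.2 and 21.7 CPM in knockout, against 1.56 and 12.3 CPM in wild type. These 3 scaffolds stood over both wild-type values in every knockout library, with log2 fold changes of 3.44 ± 0.94 (SE; edgeR adjusted p = 0.801), 2.05 ± 0.85 (SE; edgeR adjusted p = 0.801) and 1.90 ± 0.94 (SE; edgeR adjusted p = 0.806). After the length correction they were 2.57, 0.74 and 1.111. Over the list 3 of 16 genes lay higher and 0 lower in every knockout library, against 13.5% and 11.1% of all genes. The list median depended on the wild-type libraries: it was 0.54 when replicate 1 of the wild type was left out and -0.39 when replicate 2 was, against 0.15 and 0.25 over all genes in those fits. In the Dzip1 experiment the list had a median of 0.032 with 10 of 16 positive, and its 3 genes with the smallest p, the augmin subunits Haus4, Haus8 and Haus5, had log2 fold changes of 0.12 ± 0.063 (SE; edgeR adjusted p = 0.828), 0.088 ± 0.055 (SE; edgeR adjusted p = 0.848) and 0.078 ± 0.062 (SE; edgeR adjusted p = 0.869). Their groups overlapped.

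Of 9 further modifying genes edgeR called 0 in either experiment, with medians of -0.14 for Ift88 and -0.010 for Dzip1. Setd2, a methyltransferase that also acts on alpha-tubulin, had 42.1, 53.1 and 22.8 CPM in knockout, against 5.02 and 14.7 CPM in wild type. Ccdc23, the older symbol of the vasohibin partner Svbp, had 58.7, 54.96 and 42.96 CPM in knockout, against 87.6 and 84.4 CPM in wild type. Tpgs1, a subunit of the Ttll1 complex, had 37.9, 38.5 and 34.5 CPM in knockout, against 47.6 and 54.1 CPM in wild type. Setd2 was higher and the other 2 lower in every knockout library than in both wild-type values, with log2 fold changes of 2.00 ± 0.68 (SE; edgeR adjusted p = 0.801), -0.72 ± 0.33 (SE; edgeR adjusted p = 0.801) and -0.46 ± 0.34 (SE; edgeR adjusted p = 0.884). After the length correction they were 1.30, -0.24 and -0.068. Over the list 1 of 9 genes lay higher and 2 lower in every knockout library, against 13.5% and 11.1% of all genes. In the Dzip1 experiment Gm16517, an older symbol of Tpgs1, had 0.083 ± 0.056 (SE; edgeR adjusted p = 0.863), Ttl, which puts the tyrosine back, had -0.076 ± 0.057 (SE; edgeR adjusted p = 0.868), and the deacetylase Sirt2 had -0.046 ± 0.041 (SE; edgeR adjusted p = 0.880) on the log2 scale. For Tpgs1 the S14R/+ libraries lay above the wild-type libraries, and the other 2 overlapped. Over the list 1 of 9 genes lay higher and 0 lower without overlap, against 5.27% and 5.01% of all genes.

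The authors' deposited tables also hold an adjusted p per gene, given for 35 members in the Ift88 table and 39 in the Dzip1 table, and 0 were under 0.05 in either. The deposited log2 fold changes had a Pearson correlation across genes with those of the labelled comparison of 0.702 for Ift88 and -0.325 for Dzip1, and the deposited test statistics a Spearman correlation of 0.932 and -0.553, genes not being independent replicates. The sign in the authors' deposited table was opposite for 0 of 38 members in the Ift88 experiment and for 27 of 39 in the Dzip1 experiment. What the deposited Dzip1 statistics compare was not settled, and no fold change from the tables is used here.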

How the data were processed

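RNA was sequenced from 11 mitral leaflet libraries, grouped by the genotype in the labels. Per the labels' protocols, RNeasy extraction and DNase treatment came before SMART-Seq v4 amplification, a full-length, low-input method. Per the submitters' processing notes, the tools named are FastQC 0.11.5, cutadapt 1.11, HTSeq, DESeq and DESeq2, and the build is GRCm38. Neither aligner, annotation nor strand setting is given in the sources used here. The deposited tables hold raw counts per gene and library, per the file headers and the whole-number values. Beside them the authors deposited a signal per gene (the mean normalized count, baseMean), a log2 fold change with its standard error, a score (the test statistic), a p-value and an adjusted p-value. Of these, the log2 fold change, the test statistic and the adjusted p-value were read.

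Each table was fitted apart and whole with edgeR 4.0.16 (R 4.3.3), by the quasi-likelihood F test with TMM scaling and the default filterByExpr filter, with Benjamini-Hochberg adjustment over all genes tested and a threshold of 0.05. Fold changes are mutant over wild type. Each standard error is the absolute log2 fold change divided by the square root of the F statistic, so it restates the test and was not estimated apart. The 95% intervals are built from it with the t distribution and edgeR's degrees of freedom. They are not adjusted for the number of genes. A group with no count was set to a floor of 3 counts over the group, which covers counting error only. Levels per kilobase divide CPM by the union of annotated exons in GENCODE M21, in which 26405 of 28591 gene symbols had a length. The steps were tested on simulated data.

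The members and lists were chosen with earlier results of these data known. Named with each library's value were alpha-, beta- and gamma-tubulins with a mean of at least 10 CPM, up to 4 enzyme or complex genes per role with the smallest p and a mean count of at least 50, and up to 3 genes per related list by the same rule. Tuba8, Tuba3b, Tubg2, Ttll3, Ttll13, Agbl1, Tubb1 in the Dzip1 experiment, and members whose groups did not overlap were added after their values were seen. Alternatives were DESeq2 1.42.0, limma-voom (limma 3.58.1), and upper-quartile and RLE scaling. Further ones were a filter of 1 count only, a mean count of at least 50 and a threshold of 0.1. Each library was corrected for the union exon length by lowess (span 0.3), the cardiomyocyte list was a covariate, and each library was left out. For Ift88 the title prefix was a covariate or the IR28N libraries were fitted alone. For Dzip1 sex read from the counts was a covariate. The deposited adjusted p and the longest transcript as length were also used. Plain CPM with no scaling factor was added after seeing the data.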

Additional observations from a re-analysis of the deposited data

How the results depend on the processing

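No call changed: edgeR and every alternative fitted to the counts gave 0 members past the threshold in both experiments, and so did the deposited adjusted p of Ift88. That of Dzip1 is not counted here, since what it compares was not settled. Low counts limit members such as Tuba8, Ttll3 and Agbl1, for which no count in a library does not show absence. The zeros of Tuba8 did not follow depth. It had 50 counts in knockout replicate 3 (23.4 M) but 0 in knockout replicate 2 (40.3 M) and wild-type replicate 2 (53.8 M). Agbl1 was counted only in the deepest library, wild-type replicate 2. With 5 libraries and a spread of 87.7%, the intervals of Ift88 leave most fold changes undetermined. The Ift88 median log2 fold change of 0.17 was 0.47 under limma-voom, 0.30 under plain CPM, 0.36 with the title prefix as a covariate and 0.067 to 0.74 with 1 library left out, while the median of all genes, -0.013 as fitted, was 0.10 under plain CPM. The summed beta-tubulin log2 ratio of 0.32 was 0.44 under plain CPM, and the summed alpha-tubulin ratio of 0.32 was -0.0026 in the IR28N libraries alone. The Dzip1 median moved by less than the spread between libraries under every alternative fitted. So did the summed ratios under the other scalings, filters and left-out libraries, the alternatives for which they were computed; with 1 library left out they were 0.051 to 0.14 for alpha-tubulin and 0.012 to 0.069 for beta-tubulin, both highest without wild-type replicate 2. Over named members and the alternatives that can change a fold change, 400 of the Ift88 log2 fold changes kept their direction and 48 did not; for Dzip1 402 kept it and 30 did not. Agbl3 in Ift88 kept its direction at -1.36 to -0.014 with 1 library left out. None of these was called in either direction, and the cause was not tested.

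Reversed log2 fold changes of Ift88 were as follows. Under limma-voom, Tuba4a was 0.17, Tubb1 was 0.94, Tubb2a was 0.070, Agbl2 was 2.16 and Atat1 was 0.53. Under plain CPM, Tubb2a was 0.055 and Atat1 was 0.056. With a mean count of at least 50, Tubb2a was 0.0019. After the length correction, Tubb2a was 0.34, Ttll5 was -0.69 and Tubgcp3 was -0.22. With the cardiomyocyte covariate, Tuba1b was -0.29, Tubb1 was 8.53, Tubb2a was 0.52, Tubb2b was -0.014, Ttll5 was -0.23, Vash2 was -0.053 and Tubgcp5 was 0.18. In the IR28N libraries alone, Tuba1b was -0.45, Tubb1 was 10.49, Tubb2a was 0.68, Tubb2b was -0.082, Ttll5 was -0.36, Vash2 was -0.21 and Tubgcp5 was 0.53. With the title prefix as a covariate, Tubb1 was 2.00 and Tubb2a was 0.15. With 1 library left out, the log2 fold changes spanned Tubb2a -0.48 to 0.64, Tubb4b -0.049 to 0.22, Ttll5 -0.54 to 2.52, Tuba1c -0.81 to 0.053, Tubgcp3 -0.19 to 0.86, Tuba4a -1.40 to 1.46, Tubb3 -0.35 to 11.58, Agbl2 -1.98 to 9.20, Atat1 -0.96 to 1.503, Tuba1b -0.46 to 0.94, Tubb1 -3.12 to 10.77, Tubb2b -0.25 to 1.67, Tubg1 -0.13 to 1.33, Vash2 -0.21 to 1.07 and Tubgcp5 -0.91 to 0.30. A lone wild-type library in such a fit is assumed to vary like the others. The upper ends for Tubb1, Tubb3 and Agbl2 came from fits whose lone wild-type library had no count, so their sizes are not measured folds. The same holds for Tubb1 in the IR28N libraries alone. The size for Tubb1 with the cardiomyocyte covariate is not a measured fold either, since that covariate leans on wild-type replicate 2.

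For Dzip1 the reversed values were small. Under DESeq2, Hdac6 was 0.00097. Under RLE scaling, Hdac6 was 0.00023. Under plain CPM, Vash2 was -0.0049. With no filter beyond 1 count, Hdac6 was 0.0026. After the length correction, Hdac6 was 0.0027. With the cardiomyocyte covariate, Tubb3 was 0.067, Tubb4a was 0.043, Tubb6 was -0.070, Tubg1 was -0.0029, Ttll1 was -0.040, Ttll12 was -0.084, Agbl5 was 0.047, Atat1 was 0.023, Hdac6 was 0.012, Vash2 was -0.016 and Tubgcp2 was -0.064. With 1 library left out, the log2 fold changes spanned Tubb2b -0.054 to 0.062, Hdac6 -0.038 to 0.045, Vash1 -0.057 to 0.0029, Tubb2a -0.059 to 0.015, Agbl3 -0.085 to 0.14, Tubgcp4 -0.0022 to 0.060, Tubb4a -0.054 to 0.0045, Tubb6 -0.00024 to 0.12, Ttll12 -0.026 to 0.068, Vash2 -0.0067 to 0.016 and Tubgcp2 -0.020 to 0.055.

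No paired analysis was possible because the labels give no replicate number, animal or day that ties a mutant library to a wild-type library. The title prefix shared by 3 Ift88 libraries was fitted as a covariate, with the values above.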
